A study of Drosophila melanogaster with 6 samples.

Results

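The gene rhomboid (rho) and 9 other genes of epidermal growth factor receptor (Egfr) signalling were followed in Drosophila S2 cells under oxidative stress. The 10 genes were taken by symbol: rho, Egfr, spi, vn, aos, sty, kek1, pnt, aop and Mkp3. All 10 were found among the 16451 genes of the deposited tables. The set was selected on the H2O2 over control values of these same 6 libraries, with the difference of rho known. The values of the 10 genes are therefore a description, and no p-value is attached to them.

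In flies, Egfr is switched on by secreted ligands. Spitz, the product of spi, is made as an inactive membrane-bound precursor, and the intramembrane protease Rhomboid cuts it to release the active ligand. Downstream, Ras, Raf and the ERK kinase Rolled act on the ETS transcription factors Pointed and Yan, and the pathway induces its own inhibitors, among them Argos, Sprouty and Kekkon-1. Rhomboid is often the limiting component, because the spi precursor is widely made while rho is transcribed in restricted places and at restricted times.

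Hydrogen peroxide (H2O2) was added at 10 mM to the stressed group for 30 min at 25 °C, and control cells received the same volume of medium instead, with 3 libraries per group. All 6 libraries came from wild-type S2 cells grown at 25 °C with 10% serum and antibiotics. S2 is an established, hemocyte-like line from fly embryos. Nothing in the labels ties the replicates to separate cultures, so the spread between libraries may be technical. Poly(A) RNA was sequenced from a stranded kit, and the title of the series names nuclear p38, a kinase activated by stress.

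Library totals were 35404927 to 42043808 expected counts after H2O2 and 36806499 to 39253171 in controls. All 12 hemocyte markers listed reached a mean of 1 TPM (a level corrected for transcript length and library size). Their summed level was 1898 to 2089 TPM after H2O2 and 2281 to 2599 TPM in controls, and its part in the results below was not tested. The summed level was 5.94 to 7.92 TPM after H2O2 and 7.93 to 10.8 TPM in controls for 4 neuronal markers, and 20.9 to 23.6 TPM and 24.2 to 29.3 TPM for 4 muscle markers. It was 107 to 122.5 TPM after H2O2 and 114 to 171 TPM in controls for 4 epithelial markers, and 95.2 to 132 TPM and 96.2 to 126 TPM for the 3 matched of 4 ovary and germ-line markers. A single gene carried most of the last 3 sums. Mean TPM after H2O2 and in controls was 20.7 and 25.7 for Mef2 (muscle), 110 and 139 for cora (epithelium), and 108 and 109 for bam (germ line). Syt1, nSyb, Mhc, Act57B, Fas3, tj and vas were under 1 TPM. No listed marker that was matched was at 0 in all libraries, and edgeR's test by group only called 0 of the 27 markers, with 2 at an unadjusted p under 0.05. DESeq2 called 1 of them, and edgeR with the replicate number as a block called 6. Over all 8955 genes tested by group only, 281 were called and 1256 had an unadjusted p under 0.05. DESeq2 called 744 of 13324 genes, and the block 21.7% of all genes tested. In bulk RNA, fewer cells with a transcript and less transcript per cell cannot be told apart.

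Levels of the 10 genes spanned several orders of magnitude, and the order was the same in both groups. In H2O2 libraries it ran from sty (253 ± 47.0 TPM, SD, n = 3) and spi (241 ± 54.0) through pnt (124 ± 3.47) to kek1 (49.7 ± 12.02), aop (49.0 ± 7.36) and Mkp3 (46.9 ± 6.56). It went on with rho (23.5 ± 10.1), vn (0.76 ± 0.231), aos (0.58 ± 0.0819) and Egfr (0.0467 ± 0.00577). In control libraries the means were 327 ± 37.4 TPM for sty, 242 ± 54.9 for spi, 134 ± 10.4 for pnt and 69.4 ± 13.0 for kek1. Those of aop and Mkp3 were 51.4 ± 4.43 and 49.1 ± 8.16 TPM. The low end in controls was rho at 7.24 ± 1.44 TPM, vn at 0.997 ± 0.292, aos at 0.427 ± 0.137 and Egfr at 0.0367 ± 0.00577. Neighbours in the order overlapped between sty and spi, and among kek1, aop and Mkp3, in both groups, and between vn and aos after H2O2 but not in controls. The ligand precursor gene spi was thus among the most abundant of the set in both groups, and the receptor gene the least.

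**Figure D1:**
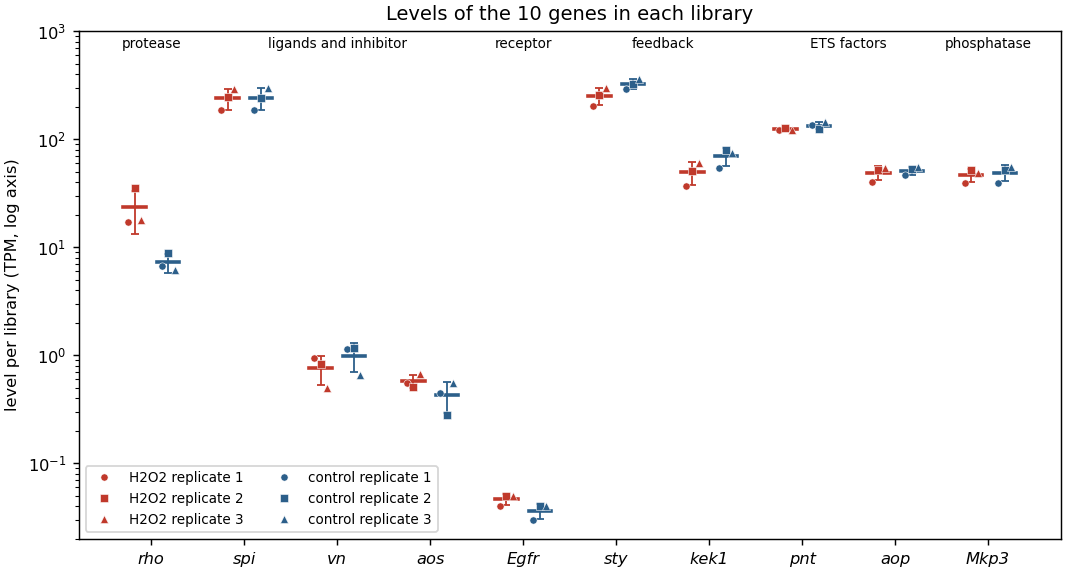
Level of each of the 10 genes in every library in TPM on a log axis, H2O2 in red left of control in blue, with the group mean (bar) and SD (whisker, n = 3). The groups are separate for rho, at 17.3 to 35.1 TPM after H2O2 and 6.15 to 8.88 TPM in controls, and overlap for the other 9.

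To compare groups, counts were scaled to CPM (counts relative to library size, normalized by TMM), and edgeR's quasi-likelihood test was run on all 8955 genes with enough counts. A gene was called at a Benjamini-Hochberg adjusted p under 0.05, and fold changes are H2O2 over control. Of all genes tested, 281 were called, 3.14%, with 230 higher (2.57%) and 51 lower (0.57%). Of the 10 genes, 9 passed the filter on low counts, and 1 of these, rho, met the call threshold as higher. With the length trend described below removed, 2.45% of all genes were called, 2.33% higher, and rho was again the 1 gene of the set. Because this comparison chose the set, nothing is read from that count. The median log2 fold change was 0.02 over the 9 genes and 0.02 over all genes tested.

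The protease gene rho (FBgn0004635, chromosome 3L, 1463811 to 1468944, dm6) was higher in every H2O2 library than in any control. It had 38.8, 85.1 and 39.9 CPM in H2O2 replicates 1, 2 and 3, against 14.0, 19.3 and 13.2 CPM in control replicates 1, 2 and 3. The means were 54.6 ± 26.4 and 15.5 ± 3.34 CPM (SD, n = 3 each), a ratio of 3.52 and a fitted log2 fold change of 1.82 (SE 0.34). H2O2 replicate 2 stood well above the other stressed libraries, and control replicate 2 was also the highest control. Between libraries of the same number, the log2 ratio was 1.48, 2.14 and 1.59 for replicates 1, 2 and 3.

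Same-numbered libraries deviated together over all genes, with correlations of 0.717, 0.518 and 0.601, and a blocked fit, with 1 term per replicate number, is given where it changes a call. For rho the block gave a log2 fold change of 1.74 (SE 0.13). Long transcripts were on the whole lower after H2O2, so fits were also made with each library's trend on transcript length removed (length correction). With block and length correction together, rho had 1.80 (SE 0.14). Among fits without 1 library, the threshold was missed when control replicate 1 (1.74), 2 (2.001) or 3 (1.71) was left out, and when H2O2 replicate 2 (1.34) or 3 (1.99) was. It was met without H2O2 replicate 1 (2.01). The log2 fold change thus was 1.34 or more in all 16 fits, and 8 of them met the threshold. Because these fits reuse the libraries on which the set was selected, they only describe rho and lend its difference no support.

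**Figure D2:**
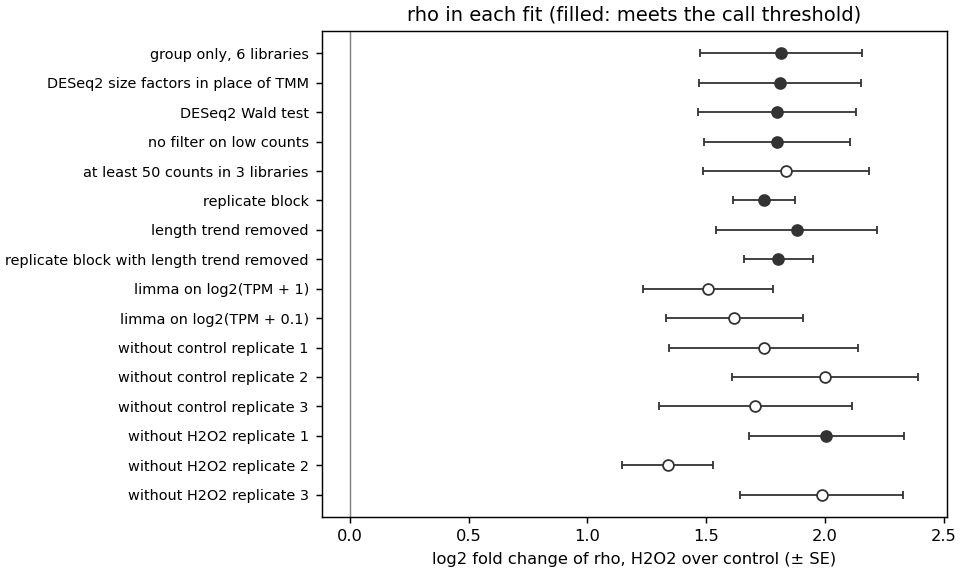
Log2 fold change of rho (H2O2 over control, point with SE) in each of 16 fits, with filled points where the call threshold was met and open points where it was not. Values lie between 1.34, without H2O2 replicate 2, and 2.01, without H2O2 replicate 1.

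No reads of rho were shared with another gene in the authors' counting, as the posterior SD of its count was 0 in every library. Its annotated span overlaps Ptp61F, a tyrosine phosphatase gene on the opposite strand. Ptp61F had 140, 155 and 156 CPM in H2O2 replicates 1 to 3, against 132, 182 and 163 CPM in controls (log2 fold change −0.08, SE 0.14). The sources used here do not say whether the counting used strand. The nearest gene of at least 10 CPM upstream on the same strand, CG9166, lies 111 kb away.

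The annotation gives rho 2 transcripts of 2531 and 3000 nt with the same coding length of 1065 nt, which start together and end 469 nt apart. The share of the longer one follows from the abundance-weighted length in the authors' tables. It was 4.70%, 9.58% and 9.15% in H2O2 replicates 1, 2 and 3, against 3.55%, 5.36% and 4.45% in controls. The groups overlapped, and the shorter transcript made up most of rho in all 6 libraries, with 21.5 ± 8.86 TPM after H2O2 and 6.91 ± 1.32 TPM in controls.

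Likeness to rho was taken by a fixed measure, the Pearson correlation of log2 CPM over the 6 libraries. Genes compared were those tested with a mean of at least 5 CPM over all 6. The 5 genes most like rho were CG5707 (0.992), Nthl1 (0.991), yellow-c (0.990), sqz (0.988) and Galphaf (0.988). The 6 points share the group difference and the high H2O2 replicate 2, so the values only describe the pattern. Nthl1, a base excision repair glycosylase gene, had 19.99, 23.4 and 19.5 CPM in H2O2 libraries, against 16.9, 17.3 and 16.3 CPM in controls. The zinc finger gene sqz had 7.30, 8.83 and 6.84 CPM in H2O2 libraries, against 5.08, 5.23 and 4.92 CPM in controls. In both, as in rho, H2O2 replicate 2 was the highest library and all H2O2 libraries were above all controls, at smaller log2 fold changes of 0.32 and 0.59. CG5707 and Galphaf, a G protein subunit gene, had 2.05 and 2.21, and yellow-c had 2.82. Mean CPM after H2O2 and in controls was 8.09 and 1.95 for CG5707, 12.8 and 2.77 for Galphaf, and 9.16 and 1.30 for yellow-c. CG5707, Galphaf and yellow-c thus passed the minimum of 5 CPM only through their H2O2 libraries, a filter that favours genes high after H2O2. Among the other 8 tested genes of the set, the correlation with rho ran from −0.411 for sty to 0.469 for aos.

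The Spitz precursor gene spi (chromosome 2L, 19567900 to 19577315) had 248, 351 and 388 CPM in H2O2 replicates 1, 2 and 3, against 233, 314 and 380 CPM in controls. The groups overlapped almost fully, and each number held a similar place in both groups, with log2 ratios of 0.09, 0.16 and 0.03 within numbers. The fitted log2 fold change was 0.09 (SE 0.23), and 0.05 (SE 0.06) with block and length correction together. The 5 spi transcripts share the coding length of 702 nt and the 3′ end and differ in start or splicing, and the mean spi transcript length stayed between 1602 and 1614 nt in all 6 libraries.

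The gene vn (chromosome 3L, 5813338 to 5845664) encodes Vein, a neuregulin-like ligand that needs no cutting by Rhomboid. It was near the low end of the range, with 4.38, 4.20 and 2.28 CPM in H2O2 replicates 1, 2 and 3, against 5.02, 5.34 and 2.96 CPM in controls. Replicate 3 was lowest in both groups, and the groups overlapped. The log2 fold change was −0.30 (SE 0.34), and −0.03 (SE 0.13) with block and length correction together. By group only it was −0.06 without H2O2 replicate 3 and −0.52 without control replicate 3. Its longer transcript of 5102 nt made up 96.6% to 100% of vn in every library.

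The gene aos (chromosome 3L, 16470386 to 16483650) encodes Argos, a secreted protein that binds Spitz and keeps it from the receptor. It had 50, 57 and 65 counts in H2O2 libraries, against 39, 26 and 48 counts in controls, or 1.39, 1.36 and 1.65 CPM against 1.05, 0.687 and 1.33 CPM. All stressed libraries were above all controls in CPM, by a narrow margin, while in TPM the groups overlapped. The log2 fold change was 0.52 (SE 0.30). In CPM, rho and aos were the 2 of 9 tested genes whose groups did not overlap, both higher after H2O2, a state found in 20.4% of all genes tested, 9.98% higher and 10.4% lower. On the opposite strand within its span, CG33158 had a log2 fold change of −0.11 (SE 0.19).

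The receptor gene Egfr (chromosome 2R, 21522420 to 21559977) was close to the limit of detection, with 7, 12 and 10 counts in H2O2 replicates 1, 2 and 3, against 6, 7 and 7 counts in controls. It did not pass the filter on low counts, and is the 1 member of the set with no value in the comparison above. Fitted without a filter, its log2 fold change was 0.43 (SE 0.41). In CPM the H2O2 libraries were above the controls and in TPM the groups overlapped, and counts this low do not show a difference. In all libraries the weighted length equalled that of the shorter transcript, 5698 nt, with 0% assigned to the one of 6124 nt, which has another start site.

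The inhibitor gene sty (chromosome 3L, 3401153 to 3424935) encodes Sprouty, an intracellular antagonist of receptor tyrosine kinase signalling. It had 710, 951 and 1018 CPM in H2O2 replicates 1, 2 and 3, against 922, 1077 and 1190 CPM in controls. Each H2O2 library was below the control of its number, while the groups as wholes overlapped. The log2 fold change was −0.25 (SE 0.17) without the block, where it was not called. With the block sty met the threshold as lower (−0.26, SE 0.07), and with length correction added it did not (−0.08, SE 0.07).

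The transmembrane inhibitor gene kek1 (chromosome 2L, 12817000 to 12822787), whose product binds Egfr, showed the same pattern. It had 195, 291 and 319 CPM in H2O2 replicates 1, 2 and 3, against 268, 411 and 379 CPM in controls. Within numbers the log2 ratio was −0.46, −0.50 and −0.25. The log2 fold change was −0.40 (SE 0.23) without the block and −0.40 (SE 0.08) with it, where kek1 met the threshold as lower. With length correction added it was −0.09 (SE 0.07) and no longer met it. With the block, 21.7% of all genes were called, 8.99% higher and 12.8% lower, and of the 9 tested genes of the set rho was higher and sty and kek1 lower. With block and length correction together, 7.74% were called, and rho was the 1 gene of the set among them.

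Both inhibitor transcripts are long, with a mean of 3806 nt for sty and 5765 nt for kek1. Expressed genes (5 CPM or more) of over 2000 and up to 4000 nt, 2295 in all, had a median log2 fold change of −0.08, and the 917 genes of over 4000 and up to 8000 nt had −0.29. Both genes lay below the median of their length class, sty in the first, near its upper edge, and kek1 in the second. With the length trend removed, by group only, sty had −0.08 (SE 0.15) and kek1 −0.08 (SE 0.19). The part of length in the values of sty and kek1 was not tested.

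**Figure D3:**
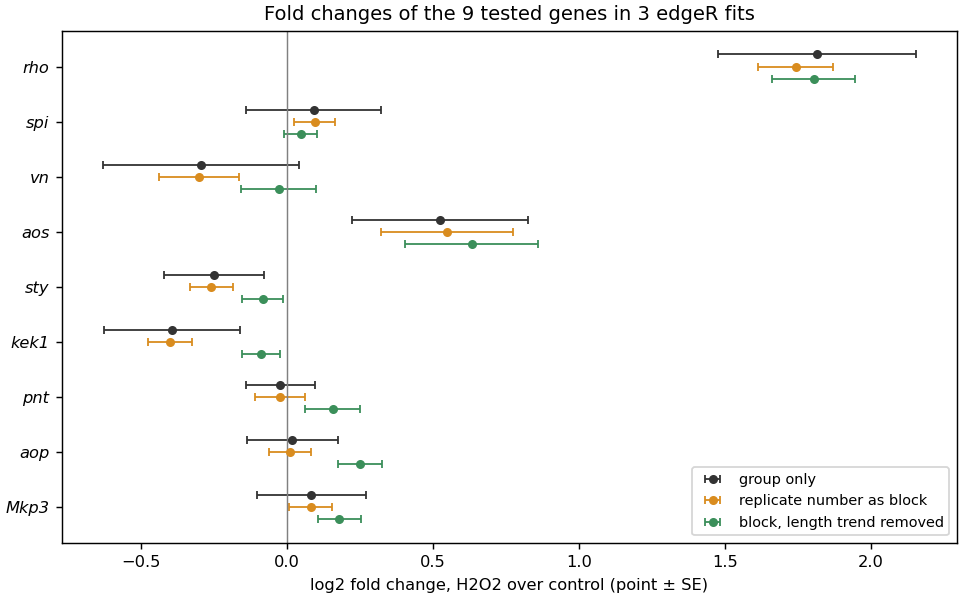
Log2 fold change of the 9 tested genes (H2O2 over control, point with SE) in 3 edgeR fits over all genes, by group only, with the replicate number as a block, and with block and length correction together. The value of rho lies between 1.74 and 1.82 in all 3, while sty and kek1 lie at −0.25 and −0.40 by group only and at −0.08 and −0.09 in the fit with block and length correction together.

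In the mix of sty transcripts the groups did not overlap. The tables hold 2 sty transcripts, to which the annotation gives 4280 and 3264 nt and the same coding length of 1767 nt. The shorter one starts 6974 nt further downstream and ends 1663 nt earlier. The longer one made up 57.2%, 57.6% and 57.9% of sty in H2O2 replicates 1, 2 and 3, against 50.8%, 47.8% and 49.1% in controls. The means were 57.5 ± 0.353% after H2O2 and 49.2 ± 1.52% in controls (SD, n = 3 each). Of 2004 tested genes with 2 transcripts whose lengths could be placed, 12.8% had groups that did not overlap in this share, 6.79% with a higher and 6.04% with a lower share of the longer transcript after H2O2. 

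In levels, the shorter sty transcript had 107 ± 19.1 TPM after H2O2 and 166 ± 21.9 TPM in controls, with 87.4, 108 and 126 TPM in H2O2 replicates 1 to 3, against 143, 171 and 186 TPM in controls. Every H2O2 library was below every control. The longer one had 145 ± 27.9 TPM after H2O2 and 161 ± 16.3 TPM in controls, and its groups overlapped. By mean transcript length, sty was longer after H2O2 in all libraries (3845 to 3852 nt, against 3749 to 3780 nt in controls), the 1 such gene among the 8 tested members with several transcripts. Of 5000 tested genes with more than 1 length, 17.8% had groups apart in this way, 8.2% longer and 9.62% shorter. Of the 5 members with 2 transcripts, sty was the 1 whose groups did not overlap in the share of the longer one. Among the 2004 tested genes with 2 transcripts this held for 12.8%, so nothing particular to sty is read from these counts. For kek1, whose 2 transcripts differ by 1936 nt at the 3′ end, the longer made up 98.9 ± 1.91% after H2O2 and 98.7 ± 2.09% in controls. These shares were derived here from the authors' weighted lengths, which are estimates from short reads, and the transcript lengths of the annotation. They have no error of their own and assume that the authors' counting used the same transcript lengths.

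**Figure D4:**
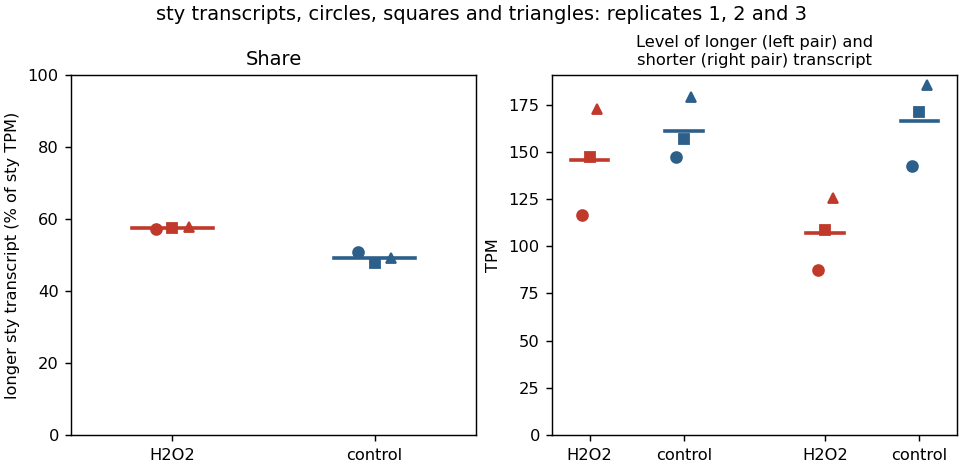
Left, share of the longer sty transcript as a percentage of sty TPM in each library. Right, TPM of the longer transcript (left pair) and the shorter one (right pair), with bars for group means, where the shorter one lies between 87.4 and 126 TPM in the 3 H2O2 libraries and between 143 and 186 TPM in the 3 controls.

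The 2 ETS factor genes at the nuclear end of the pathway had values close to those of controls. Pointed, from pnt (chromosome 3R, 23290231 to 23346167), activates Egfr target genes. It had 429, 480 and 409 CPM in H2O2 libraries, against 437, 423 and 479 CPM in controls, with a log2 fold change of −0.02 (SE 0.12). Yan, from aop (chromosome 2L, 2156484 to 2178754), represses the same targets until ERK phosphorylates it. It had 172, 237 and 222 CPM in H2O2 libraries, against 183, 217 and 223 CPM in controls, with a log2 fold change of 0.02 (SE 0.15). In both genes the groups overlapped. With block and length correction together the values were 0.16 (SE 0.09) for pnt and 0.25 (SE 0.07) for aop, and neither met the threshold. The lowly expressed gene CG15382, on the opposite strand within the aop span, had 3.79, 3.25 and 2.69 CPM in H2O2 libraries, against 1.64, 1.03 and 0.470 CPM in controls, and was not called.

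Mkp3 (chromosome 3L, 19066155 to 19086426) encodes a phosphatase that removes phosphate from the fly ERK. It had 103, 151 and 129 CPM in H2O2 libraries, against 97.0, 130 and 135 CPM in controls. The groups overlapped, and the log2 fold change was 0.08 (SE 0.19). Its mean transcript length was 2926, 3036 and 3016 nt in H2O2 libraries, against 2944, 2879 and 2870 nt in controls, and the groups overlapped there too.

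Outside the set, 45 other genes of the pathway were listed by role, with earlier results of these data known. The counts and p-values of this list are therefore a description. Of the 45 genes, 36 passed the filter on low counts. Of these, 1 was higher, rho-5, and 1 lower, Nf1, in edgeR's test over all genes, that is 2.78% each beside 2.57% and 0.57% of all genes. In CPM the groups did not overlap for 2 of the 36 as higher after H2O2 and for 6 as lower. Over all genes tested these states were found in 9.98% and 10.4%. The median log2 fold change was −0.08 over the 36 and 0.02 over all genes tested. With the length trend removed, by group only, these medians were 0.013 and 0.010. The block gave 3 higher and 8 lower genes, 8.33% and 22.2% of the 36, beside 8.99% and 12.8% of all genes. Removing the length trend too gave 5 higher and 1 lower, beside 6.19% and 1.55% of all genes.

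Among the 9 listed genes for ligands and their processing, 7 were tested and 1 was called. The gene rho-5 (FBgn0041723, chromosome 2L, 10368025 to 10373900), also known as iRhom, encodes a rhomboid-like protein without protease activity that in flies promotes the degradation of Egfr ligands. It had 10.8, 11.5 and 10.6 CPM in H2O2 replicates 1, 2 and 3, against 5.48, 7.11 and 5.81 CPM in controls. All stressed libraries were above all controls, at 0.84 on the log2 scale (SE 0.16, adjusted p = 0.0397 by edgeR's quasi-likelihood test), and 1.09 (SE 0.10) with block and length correction together. The call was lost in each of the 6 fits that left out 1 library, with log2 fold changes of 0.76 and 0.96 at the extremes and adjusted p between 0.0868 and 0.172. Its span overlaps CG33303 on the same strand, which had a mean of 11905 counts and a log2 fold change of −0.08 (SE 0.25), and reads were split between genes with a posterior SD of up to 1.41 counts for rho-5.

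The gene stet (FBgn0020248, chromosome 3L, 1475438 to 1489547), a close neighbour of rho, encodes another rhomboid protease, known for Egfr ligand activation in the germ line. It had 49, 79 and 52 counts in H2O2 replicates 1, 2 and 3, against 17, 28 and 17 counts in controls, or 1.37, 1.89 and 1.32 CPM against 0.457, 0.740 and 0.470 CPM. The groups did not overlap, but the log2 fold change of 1.45 (SE 0.31) missed the threshold (adjusted p = 0.0592 by edgeR's quasi-likelihood test). It passed with the block (1.46, SE 0.23, edgeR adjusted p = 0.00129) and by DESeq2 without it (1.44, adjusted p = 0.00569). Without 1 library edgeR gave 1.26 to 1.71 and no call. Just upstream of it on the same strand lies CG12084, which had 143 CPM and a log2 fold change of −0.25 (SE 0.10).

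The other rhomboid genes gave no call in any of these edgeR fits over 6 libraries. The protease gene rho-4 had 51.3 ± 2.21 TPM after H2O2 and 57.0 ± 5.14 TPM in controls (log2 fold change −0.05, SE 0.11). The mitochondrial rhomboid gene rho-7 had 58.4 ± 6.83 and 57.0 ± 7.01 TPM (0.14, SE 0.13). The eye protease gene ru had 1, 2 and 3 counts in H2O2 libraries, against 3, 3 and 1 counts in controls, and rho-6 had 0 counts in all 6. After H2O2 rho was thus below rho-4 and rho-7 in mean TPM, as it was in controls. The ligand genes Krn, for Keren, and grk, for Gurken, had 6.16 ± 1.35 and 48.7 ± 8.25 TPM after H2O2, and 6.17 ± 0.586 and 53.8 ± 9.61 TPM in controls, and were not called. The gene S encodes Star, which carries Spitz to the compartment where it is cut, and had a log2 fold change of −0.24 (SE 0.12). It was called lower with the block and was at 0.04 (SE 0.06) with length correction added.

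Of the 13 listed negative regulators, 12 were tested and Nf1, which encodes a Ras GTPase-activating protein, was called. Nf1 had 29.5, 26.0 and 28.2 CPM in H2O2 libraries, against 56.3, 52.4 and 49.5 CPM in controls (log2 fold change −0.92, SE 0.11, adjusted p = 0.0134 by edgeR's quasi-likelihood test). Its transcripts are long, with a mean of 9505 nt, and with the length trend removed it had −0.44 (SE 0.13) and was not called without the block (edgeR adjusted p = 0.194), while with both it had −0.43 (SE 0.07) and was called (adjusted p = 0.00644). Leaving out control replicate 2 (−0.93) or 3 (−0.97), or H2O2 replicate 2 (−0.88), also ended its call.

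The most abundant of these regulators by TPM was edl, also called mae, whose small protein binds Pointed and Yan and which is itself known as an Egfr target gene. It had 102, 227 and 119 CPM in H2O2 replicates 1, 2 and 3, against 71.6, 103 and 73.6 CPM in controls. Replicate 2 was the highest of each group, and the lowest H2O2 value lay just below the highest control. The log2 fold change of 0.86 (SE 0.31) was not called (adjusted p = 0.267 by edgeR's quasi-likelihood test). With the block edl rose, at 0.79 (SE 0.11, edgeR adjusted p = 0.00235), and at 0.72 once the length trend was removed too (SE 0.12, adjusted p = 0.013). By group only, edl had 0.42 without H2O2 replicate 2, and up to 1.06 without another library. Next in level was vap, another Ras GTPase-activating protein gene, with −0.19 (SE 0.25). PTP-ER, a phosphatase gene, and cic, a repressor gene relieved by ERK, were called lower with the block, and had −0.08 and 0.17 with length correction added, where neither was called.

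**Figure D5:**
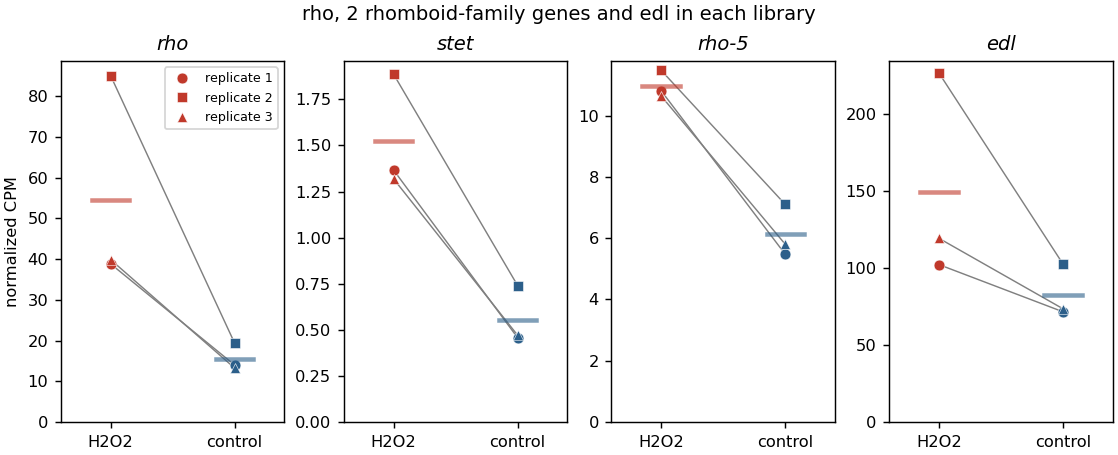
Normalized CPM of rho, stet, rho-5 and edl in each library, H2O2 left of control, with grey lines joining libraries of the same replicate number and bars at the group means. All 3 lines run higher at H2O2 in each gene, and replicate 2 (squares) is the highest in every panel and group.

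All 11 listed genes of the adaptor and Ras-ERK core were tested, and edgeR called 0 without the block, with 3 at an unadjusted p under 0.05, while DESeq2 called 1. In the edgeR fit 3 had positive and 8 negative fold changes, beside 4909 and 4046 of all 8955 genes tested. The median over the 11 was −0.07, and −0.02 with the length trend removed. The gene called by DESeq2 was Sos, the Ras exchange factor, at −0.42 (adjusted p = 0.0109). The most abundant were Ras85D, the fly Ras, at −0.01 (SE 0.11), and drk, the Grb2 adaptor, at −0.03 (SE 0.14). With the block, Sos, Raf, ksr and cnk were lower (−0.40, −0.27, −0.30 and −0.30), 36.4% of the 11 beside 12.8% of all genes. With length correction added these had −0.10, −0.14, −0.10 and −0.0032 and were not called, while csw, a phosphatase gene that transmits the signal, was called higher (0.28, SE 0.06). Of 12 transcription factors and textbook targets, 6 were tested by edgeR, with 0 called and 0 at an unadjusted p under 0.05 without or with the block, and DESeq2 called 0 of the 10 it tested. The most abundant were ttk, a repressor gene, at 0.02 (SE 0.12) and Ets97D at −0.10 (SE 0.12). With length correction added ttk was called higher (0.23, SE 0.05). The other 6 genes of that list, among them vnd, ind and mid, did not pass the filter on low counts. Of these, DESeq2 also tested vnd, ind, Dr and pip, which had at most 3 counts in any library, too few for a call.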

How the data were processed

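Alignment and quantification tools named in the submitters' processing notes are STAR (2.4.0j) and RSEM (1.2.21), on dm6. The authors deposited, for every gene, an expected count (not whole, since shared reads are divided by probability) and a TPM, beside an abundance-weighted length and a posterior SD of the count, as the column headers say. Expected counts were rounded and tested with edgeR 4.0.16 (R 4.3.3): filterByExpr, TMM, robust quasi-likelihood F test, two-sided, group as the only term. SE is the fold change over the square root of F. Deposited TPM values served for levels and, with limma 3.58.1 on log2 values, as alternatives, as did DESeq2 1.42.0. The length trend was a smoothing spline (5 df) per library, removed through offsets.

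Symbols and positions came from Ensembl release 115 (dm6 coordinates), which placed 16419 of 16451 genes. Gap1 was matched as RasGAP1. The members and lists were chosen with earlier results of these data known. Genes named were the members, called pathway genes, the 2 most abundant per class, the rhomboid and ligand genes, neighbours, and the 5 genes most like rho. The genes edl (as a block call), S, Sos, Raf, ksr, cnk, csw, PTP-ER and cic were named after their values were seen. The pairing was read from the data, as the labels give only shared numbers. No pair of the 15 was a duplicate: chi-square per degree of freedom was 48.7 or more.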

Additional observations from a re-analysis of the deposited data

How the results depend on the processing

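The number of genes called depended on the processing. Beside 281 over all genes, there were 744 by DESeq2, 76 with at least 50 counts in 3 libraries, 1947 with the replicate block, 693 with the replicate block and the length trend removed, and 32 and 44 by limma on log2(TPM + 1) and log2(TPM + 0.1). Leaving out 1 library gave 0 to 154. With edgeR the count was 0 when control replicate 2 or 3 was left out (1054 genes each at an unadjusted p under 0.05) and when H2O2 replicate 2 was (891 such genes). Of the 10 genes, 1 was called by group only, 3 with the replicate block, 0 with the stricter filter and by limma on either scale, and 0 to 1 without 1 library. Of the 45 pathway genes, 2 were called by group only, 4 by DESeq2, 1 with the stricter filter, 11 with the replicate block, 1 with the length trend removed, 6 with both, 0 by limma on either scale, and 0 to 1 without 1 library. For rho the log2 fold change was 1.84 with the stricter filter and 1.51 and 1.62 by limma with 1 and 0.1 added, where it missed the threshold. Without 1 library it was 1.34 to 2.01. Some values changed sign, none of them called by group only, but S and cic among them were called lower with the replicate block. By limma with 1 and 0.1 added, spi had −0.00316 and −0.00317, aop −0.0756 and −0.0771, Mkp3 −0.0607 and −0.0617, csw −0.0468 and −0.0491, ttk −0.0507 and −0.0519, and Krn −0.0180 and −0.0232. With the length trend removed, without and with the replicate block, pnt had 0.157 and 0.156, S 0.0371 and 0.0362, and cic 0.167 and 0.172. By DESeq2 ttk had −0.00085, without a filter −0.00033, and with the stricter filter Ras85D had 0.00713. Without 1 library, the range was −0.0809 to 0.263 for spi, −0.098 to 0.0252 for pnt, −0.0823 to 0.141 for aop, −0.0591 to 0.213 for Mkp3, −0.0732 to 0.15 for csw, −0.051 to 0.0807 for ttk, −0.101 to 0.0755 for drk, −0.067 to 0.0355 for Ras85D, −0.102 to 0.0177 for rho-4, −0.0335 to 0.255 for Krn and −0.206 to 0.0673 for grk. Without a change of sign, leaving out 1 library gave −0.523 to −0.0617 for vn, 0.301 to 0.751 for aos, −0.366 to −0.113 for sty, −0.562 to −0.214 for kek1 and 0.418 to 1.06 for edl. The cause of these changes was not tested. Egfr has no value where the filter or the TPM minimum of 1 removed it, nor have vn, aos and stet by limma. Low counts limit Egfr, aos and stet.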
